A study of Caenorhabditis elegans with 12 samples.

Results

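The genes described here build the attachment that holds body wall muscle to the epidermis and cuticle of Caenorhabditis elegans. They are mup-4, mua-3, let-805, vab-10, ifb-1, ifa-3 and unc-52, 7 of the 17118 genes measured. They were chosen by name, as all probe sets annotated to these genes alone, which gave 19 of 22548 probe sets. A further probe set carries the unc-52 symbol under 2 gene entries and was set aside. Whole animals were sampled after 48 h with aged (sulfidized) silver nanoparticles, pristine silver nanoparticles, silver nitrate (AgNO3) or the control treatment, with 3 Affymetrix arrays per group and 12 in all. All animals were wildtype N2 (Bristol), the standard laboratory strain, and entered the exposure as L1 larvae aged 12 h. The silver forms were each used at their EC30 for reproduction, the concentration that gives a 30% effect, which equates them by effect rather than by silver concentration. Each RNA sample came from a population of 2000 to 3000 animals, and the labels do not say whether the samples of a group were separate cultures, so p-values here reflect only the variation among these samples, possibly all technical. No source used here gives the larval stage at sampling.

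In nematodes, muscle contraction reaches the cuticle through fibrous organelles, structures of the thin epidermis that resemble vertebrate hemidesmosomes. A receptor on the basal face binds the matrix over the muscle, receptors on the apical face bind the cuticle, and intermediate filaments with a spectraplakin linker span the epidermis between them. Loss of such genes detaches muscle from the body wall, so that the animal cannot transmit force, and several of these proteins are remade or rearranged as the animal grows and molts.

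The arrays give 1 intensity per probe set. Signals below were scaled to a common array median and are on the log2 scale, with a floor of 4 (a signal of 16), under which values have no order. Levels are compared only within a probe set, since probe sets differ in how well they bind. Pairs of arrays from the same group had a correlation of 0.974 to 0.982 over probe sets, which are not independent replicates. Pairs from different groups had 0.968 to 0.983, a range that covers the first. In whole animals, more cells of a type and more RNA per cell cannot be told apart.

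In animals exposed to aged particles, 6 of the 7 attachment genes had means above control, beside 41.2% of all genes (41.0% of all probe sets), and 1, ifa-3, was at the floor. The apical receptor mup-4 had a log2 difference of 1.05 from control, and mua-3, let-805, vab-10, ifb-1 and unc-52 had differences between 0.39 and 0.76. The median over the 7 genes was 0.44, beside −0.02 over all genes. None passed the threshold of a limma adjusted p under 0.05 in this contrast, where 0.00887% of all probe sets did. Of the 19 probe sets, 8 lay above control on all arrays without overlap, while 4.37% of all probe sets did so, and several of the 8 belong to the same gene. At an unadjusted p under 0.05, 6 of the 19 were higher, beside 3.49% of all probe sets.

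**Figure D1:**
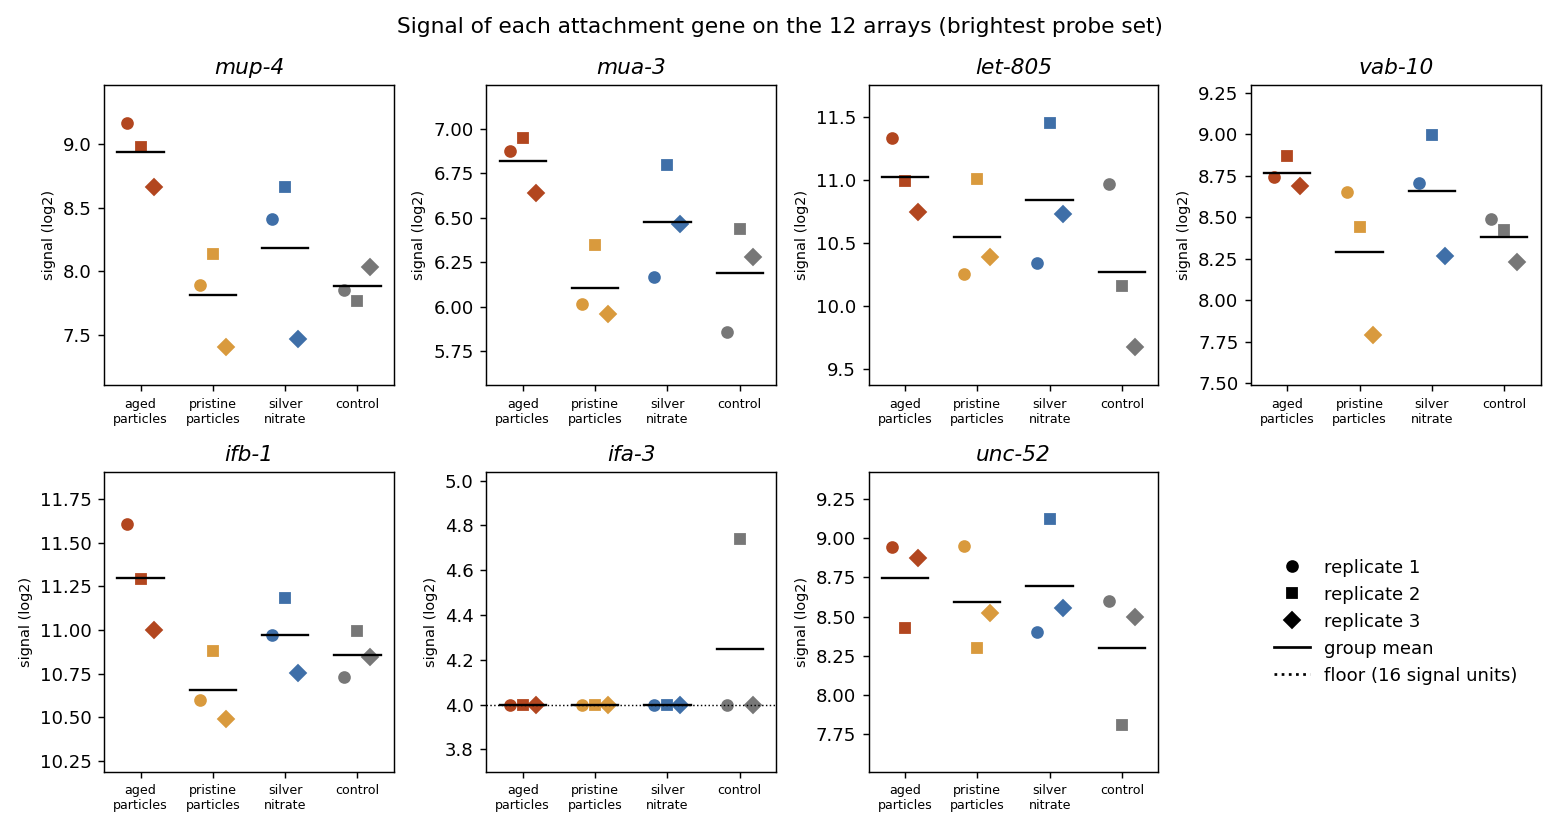
Log2 signal of the brightest probe set of each attachment gene (vertical axes, each with its own range) by group (horizontal axis), with 1 point per array, its shape giving the replicate number, and a bar at the group mean. All 3 aged-particle arrays lie above all 3 control arrays for mup-4, mua-3, vab-10 and ifb-1, while ifa-3 is at the floor of 4 on every array but control replicate 2.

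The apical receptor mup-4 (sequence name K07D8.1) codes for an epidermal transmembrane protein with EGF-like repeats that anchors the fibrous organelle on the cuticle side. Its brighter probe set read 9.16, 8.98 and 8.66 with aged particles, 7.90, 8.13 and 7.41 with pristine particles, and 8.41, 8.66 and 7.47 with silver nitrate, against 7.86, 7.77 and 8.03 in control. The aged-particle arrays lay above every control and every pristine array, and the silver nitrate arrays spread from below to above control. The group means were in the order aged particles (8.93 ± 0.25), silver nitrate (8.18 ± 0.62), control (7.89 ± 0.13) and pristine particles (7.81 ± 0.37; SD, n = 3 arrays each). The last 3 overlapped one another. Against control the aged-particle level was 2.07-fold, a log2 difference of 1.05 ± 0.30 SE with a 95% interval of 0.36 to 1.73 (limma adjusted p = 0.406).

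The second mup-4 probe set gave 7.64, 8.70 and 7.65 with aged particles, 6.998, 7.50 and 6.78 with pristine particles, and 7.28, 8.01 and 6.92 with silver nitrate, against 7.29, 6.46 and 6.88 in control. Again no aged-particle array fell within the control range, and the difference was 1.12 ± 0.39 SE (adjusted p = 0.495). Between exposures, aged exceeded pristine particles by 1.12 ± 0.30 SE on the brighter probe set (95% interval 0.43 to 1.81, adjusted p = 0.239) and by 0.90 ± 0.39 SE on the other (adjusted p = 0.472). The difference from silver nitrate was 0.75 ± 0.30 SE on the brighter one (adjusted p = 0.400). On the other it was 0.59 ± 0.39 SE, with overlapping arrays (95% interval −0.28 to 1.47, limma adjusted p = 0.659).

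The related receptor gene mua-3 (K08E5.3) codes for another large transmembrane protein on the cuticle side. It is needed to keep muscle attached as the worm grows, and showed a pattern similar to that of mup-4. It read 6.88, 6.95 and 6.64 with aged particles, 6.01, 6.35 and 5.96 with pristine particles, and 6.16, 6.80 and 6.47 with silver nitrate, against 5.86, 6.44 and 6.28 in control. No aged-particle array overlapped control or pristine ones, while silver nitrate replicate 2 reached the aged-particle range. The difference from control was 0.63 ± 0.20 SE (1.55-fold, 95% interval 0.18 to 1.08, adjusted p = 0.447), and from pristine particles it was 0.71 ± 0.20 SE (adjusted p = 0.255). For silver nitrate the difference from control was 0.28 ± 0.20 SE (adjusted p = 0.628). The other mua-3 probe set lay at the floor on all 12 arrays and carries no information on direction.

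On the muscle side, let-805 (H19M22.2) codes for myotactin, a transmembrane protein with fibronectin type III repeats at the basal face of the epidermis. Its bright probe set read 11.33, 10.99 and 10.74 with aged particles, 10.25, 11.004 and 10.38 with pristine particles, and 10.34, 11.45 and 10.73 with silver nitrate, against 10.96, 10.16 and 9.67 in control. All groups overlapped, and the spread within control (SD 0.65) was close to the difference of 0.76 ± 0.39 SE between aged particles and control (95% interval −0.12 to 1.63, adjusted p = 0.667). The highest array of all was silver nitrate replicate 2. The 2 dimmer let-805 probe sets differed from control by 0.30 and −0.15 with aged particles, and 1 pristine array lay at the floor on each.

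The linker vab-10 (ZK1151.1) codes for spectraplakins, giant proteins that tie membrane receptors to the cytoskeleton, and RefSeq lists 14 mRNA isoforms for it. The brightest of its 6 probe sets read 8.74, 8.87 and 8.69 with aged particles, 8.65, 8.44 and 7.79 with pristine particles, and 8.70, 8.997 and 8.26 with silver nitrate, against 8.49, 8.42 and 8.23 in control. The aged-particle arrays lay narrowly above control and pristine arrays, with a difference from control of 0.39 ± 0.24 SE (adjusted p = 0.729). The probe sets cannot be matched to isoforms from the annotation used here, and they did not differ from control alike. The fourth in brightness read 6.16, 5.98 and 4.14 with aged particles, 6.44, 6.97 and 6.48 with pristine particles, and 6.57, 6.28 and 5.88 with silver nitrate, against 6.47, 5.87 and 6.61 in control. Here aged particles lay below pristine particles without overlap (−1.21 ± 0.49 SE, adjusted p = 0.443), and aged replicate 3 was the lowest array of all. The next 2 in brightness after the first differed from control by 0.09 and −0.11 with aged particles, the fifth was at the floor on some arrays, and the sixth on all 12.

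Intermediate filaments give the fibrous organelle its tensile core. The gene ifb-1 (F10C1.2) codes for the B-type filament protein that pairs with A-type partners in the epidermis and other epithelia. Its brighter probe set read 11.61, 11.29 and 11.002 with aged particles, 10.60, 10.88 and 10.49 with pristine particles, and 10.97, 11.18 and 10.76 with silver nitrate, against 10.73, 10.996 and 10.85 in control. The groups with aged particles and control barely parted, at 2052 signal units on aged replicate 3 against 2043 on control replicate 2. The difference between aged particles and control was 0.44 ± 0.17 SE (1.36-fold, 95% interval 0.05 to 0.84, adjusted p = 0.545), and between aged and pristine particles it was 0.64 ± 0.17 SE (1.56-fold, adjusted p = 0.239).

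The second ifb-1 probe set gave 10.999, 10.55 and 10.36 with aged particles, 10.43, 10.38 and 9.73 with pristine particles, and 10.51, 10.57 and 10.16 with silver nitrate, against 10.22, 10.11 and 10.10 in control. Aged-particle arrays again lay above control, by 0.49 ± 0.22 SE (adjusted p = 0.606). Across the 12 arrays this probe set and the brighter one correlated at r = 0.83, and the 2 mup-4 probe sets at r = 0.81, as a description with no test. Its A-type partner ifa-3 (F52E10.5), a filament protein of the epidermis, had 1 probe set. It lay at the floor on all arrays of all 3 exposures and on 2 control arrays, with 4.74 on control replicate 2, so no direction can be given.

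The matrix gene unc-52 (ZC101.2) codes for perlecan, the heparan sulfate proteoglycan of the basement membrane between muscle and epidermis. Its brightest probe set read 8.94, 8.43 and 8.87 with aged particles, 8.95, 8.30 and 8.53 with pristine particles, and 8.40, 9.12 and 8.55 with silver nitrate, against 8.60, 7.81 and 8.50 in control. All groups overlapped, and the differences from control were 0.44, 0.29 and 0.39 (SE 0.28 each, adjusted p = 0.737, 0.838 and 0.634).

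On the second unc-52 probe set the values were 7.95, 8.46 and 7.997 with aged particles, 8.27, 8.06 and 7.97 with pristine particles, and 8.27, 8.67 and 7.82 with silver nitrate, against 7.56, 7.45 and 7.46 in control. Every array of each exposure lay above all control arrays. The differences from control were 0.64 for aged particles, 0.61 for pristine particles and 0.76 for silver nitrate (SE 0.21 each, adjusted p = 0.467, 0.46 and 0.181).

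The third unc-52 probe set gave 8.18, 7.89 and 7.98 with aged particles, 7.97, 7.80 and 7.99 with pristine particles, and 8.31, 8.35 and 8.19 with silver nitrate, against 7.71, 7.58 and 7.83 in control. Silver nitrate arrays lay above those of every other group, with a difference from control of 0.58 ± 0.10 SE (1.49-fold, 95% interval 0.36 to 0.80). Its adjusted p of 0.0702 was the smallest of any attachment probe set in any contrast, and it was 0.0368, past the threshold, where only probe sets above median brightness were tested. Between silver nitrate and the particles the difference stood at −0.27 ± 0.10 SE for aged particles minus silver nitrate (adjusted p = 0.337) and −0.36 ± 0.10 SE for pristine particles minus silver nitrate (adjusted p = 0.271). All 3 probe sets of unc-52 thus lay higher than control in each exposure by their means, without passing the threshold over all probe sets.

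**Figure D2:**
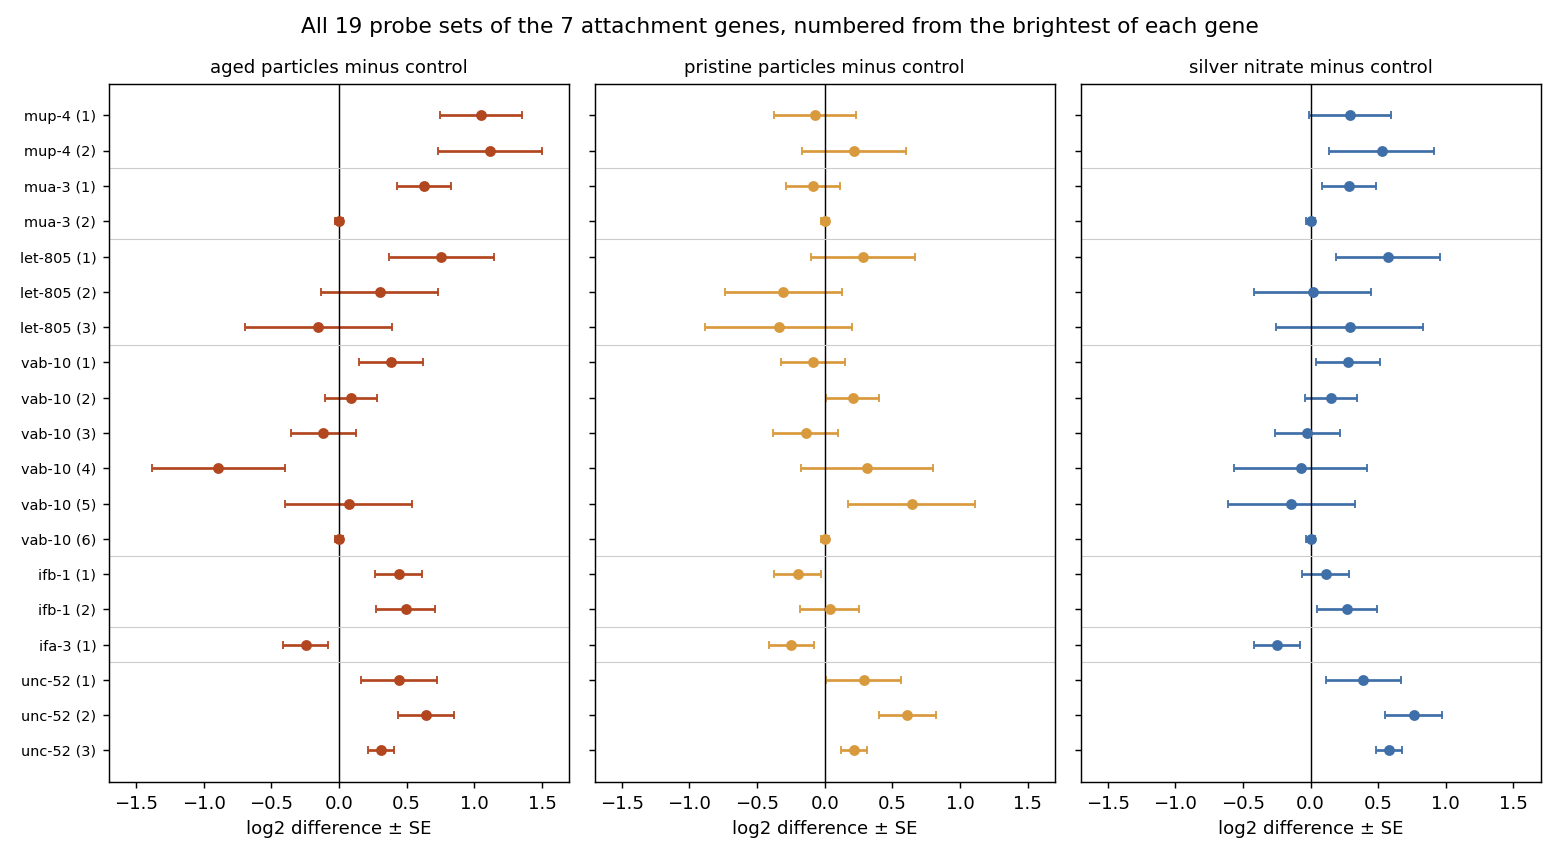
Log2 difference from control ± SE (horizontal axes) for all 19 probe sets, listed down the page by gene and numbered from the brightest, for aged particles, pristine particles and silver nitrate. With aged particles both mup-4 and both ifb-1 probe sets lie to the right of 0, the 6 vab-10 probe sets lie on both sides, and the 3 unc-52 probe sets lie to the right of 0 in every panel.

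For pristine particles, 2 of the 7 genes, let-805 and unc-52, had means above control, beside 46.3% of all genes (46.4% of all probe sets). Differences from control were −0.07 for mup-4, −0.09 for mua-3, 0.28 for let-805, −0.09 for vab-10 and −0.20 for ifb-1, each with overlapping arrays. The median over the 7 genes was −0.09, beside 0.00 over all genes. None of the 19 probe sets passed, beside 0.00443% of all, 1 had an unadjusted p under 0.05 and was higher, beside 4.09% of all, and 1 lay above control without overlap, beside 5.33%. The 95% interval for mup-4 ran from −0.76 to 0.61.

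For silver nitrate, 6 of the 7 genes had means above control, beside 43.4% of all genes (43.1% of all probe sets), and ifa-3 was at the floor. The median was 0.28, beside −0.01 over all genes. None of the 19 probe sets passed, beside 0.133% of all. The same 2, both of unc-52, had an unadjusted p under 0.05, beside 5.17% of all that were higher, and lay above control without overlap, beside 6.05% of all. Silver nitrate replicate 2 had the highest value of its group for each of the 6 genes over the floor. Without it, the difference from control was 0.06 in place of 0.29 for mup-4, 0.12 in place of 0.28 for mua-3, 0.27 in place of 0.57 for let-805, 0.10 in place of 0.27 for vab-10, 0.01 in place of 0.11 for ifb-1 and 0.17 in place of 0.39 for unc-52.

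Between the exposures, the 19 probe sets gave no call with any pair. Between aged and pristine particles, 5 probe sets lay above without overlap (6.85% of all did) and 1 below (8.77% of all), and 0.111% of all probe sets passed the threshold. Between aged particles and silver nitrate it was 1 above, the brighter mup-4 probe set, by 405.0 signal units on aged replicate 3 against 403.8 on silver nitrate replicate 2 (7.49% of all), and 1 below, the third of unc-52 (7.72% of all), with 0.253% of all passing. Between pristine particles and silver nitrate it was 1 above, the fifth of vab-10, on which 1 silver nitrate array lay at the floor (7.77% of all), and 1 below, the third of unc-52 (5.75% of all), with 0.00443% of all passing. A test of any difference among the 4 groups called 0 of the 19 (limma F test, smallest adjusted p = 0.131, on unc-52), with 5 at an unadjusted p under 0.05, beside 0.0621% and 12.9% of all probe sets.

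By the brightest probe set of each gene, the order of the group means was alike across the genes over the floor. In all 6 of them the aged-particle mean was the highest and the silver nitrate mean the next. Among 12273 genes over the floor on all arrays, 19.4% had their highest mean with aged particles and 5.69% had aged particles first and silver nitrate next. Without silver nitrate replicate 2, aged particles stayed highest in all 6 (19.6% of all genes), and silver nitrate was next in 4 (5.0% of all genes), the exceptions being let-805 and unc-52. Control ranked above pristine particles for mup-4, mua-3, vab-10 and ifb-1, and below them for let-805 and unc-52. On dimmer probe sets these orders did not always hold. For unc-52 the dimmer ones had their highest mean with silver nitrate (8.25 and 8.285, against 8.13 and 8.02 with aged particles). On no dimmer vab-10 probe set over the floor on all arrays were aged particles highest. The dimmer mup-4 and ifb-1 probe sets kept aged particles first and silver nitrate next. Their pristine means (7.09 and 10.183) exceeded control (6.88 and 10.145). The 6 genes share their arrays, so these orders are not independent of one another.

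Over the 12 arrays, the pairs mup-4 and ifb-1 (r = 0.89), mua-3 and ifb-1 (r = 0.86), mup-4 and vab-10 (r = 0.80) and mup-4 and mua-3 (r = 0.76) had the highest correlations among the 21 pairs, as a description. With group means removed these were 0.76, 0.66, 0.77 and 0.35. The pairs of unc-52 with the epidermal genes were lower, at r = 0.18 with ifb-1, 0.20 with mua-3, 0.40 with mup-4 and vab-10, and 0.47 with let-805. Among 12272 other genes over the floor, those with the profile most like mup-4 were fbxl-4 (r = 0.95), abu-14 (0.93) and abu-15 (0.92), over 12 arrays. For ifb-1 they were ttr-8 (0.92), hpo-26 (0.91) and mup-4 itself (0.89), and for mua-3 they were ugt-45, K09D9.1 and ttr-8 (0.90 each). Nearest to vab-10 were ZK673.1 (0.90), the cuticle collagen gene sqt-1 (0.89) and glel-1 (0.89), to let-805 T09B4.5 (0.91), acly-1 (0.90) and T19D12.4 (0.90), and to unc-52 C38D9.2 (0.88), hda-3 (0.86) and fipr-26 (0.86). These are the highest of many coefficients over few arrays and carry no test, and that of ifa-3 rests on 1 array over the floor and is not given.

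Genes of the molting cycle were high on the same arrays as the attachment genes. The mean level of 26 molting-cycle genes, less that of control, was 0.40, 0.87 and 0.48 on the aged-particle arrays, −0.23, −0.06 and −0.28 on the pristine arrays, and 0.02, 0.69 and −0.39 on the silver nitrate arrays, against 0.03, −0.05 and 0.02 on the control arrays. The 7 attachment genes had 0.65, 0.48 and 0.35 on the aged-particle arrays, 0.03, 0.14 and −0.23 on the pristine arrays, and 0.12, 0.58 and 0.02 on the silver nitrate arrays, against 0.05, 0.03 and −0.08 on the control arrays. Both lists were high on all aged-particle arrays and on silver nitrate replicate 2, but aged replicate 1 was the highest aged array for attachment genes and the lowest for molting-cycle genes. Of lists described below, other intermediate filament genes had 0.35, 0.24 and 0.00 on the aged-particle arrays and 0.49 on silver nitrate replicate 2. Dense body and M-line genes had 0.35, 0.35, 0.13 and 0.17 on these arrays, fibrous organelle partners 0.18, −0.11, −0.18 and 0.10, and spectrin cytoskeleton genes 0.23, 0.27, 0.01 and 0.26. On the remaining arrays, other intermediate filament genes reached 0.33 and spectrin cytoskeleton genes 0.31, both on silver nitrate replicate 1. Dense body and M-line genes reached 0.14 on control replicate 1, and fibrous organelle partners 0.16 on pristine replicate 1. Whether the stage of the molting cycle had a part in the attachment gene levels was not tested.

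**Figure D3:**
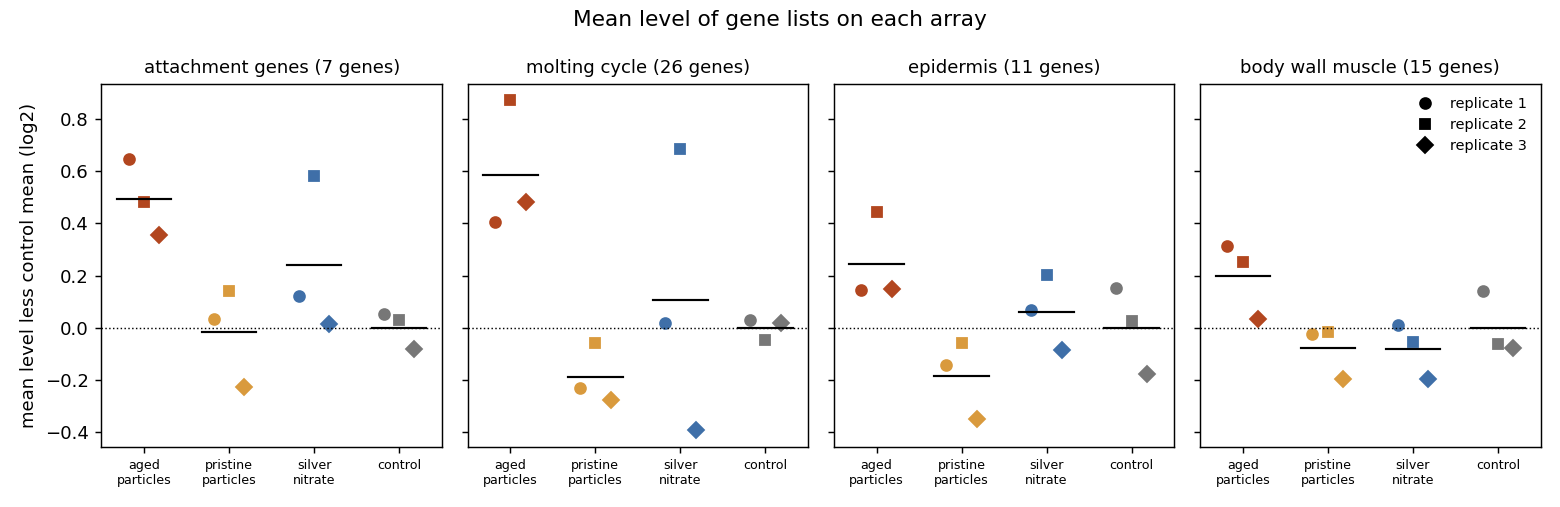
Mean log2 level of the attachment genes, molting-cycle genes, epidermis markers and body wall muscle markers on each array, less the control mean (vertical axis, shared), by group (horizontal axis), with bars at group means. The attachment and molting-cycle lists are both high on the aged-particle arrays and on silver nitrate replicate 2 (0.58 and 0.69).

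Of the molting-cycle list, 22 of 26 genes lay above control with aged particles, with a median of 0.53, and 0 passed. The 4 brightest were sqt-3, a cuticle collagen gene (0.81), noah-1, which codes for an apical matrix protein (0.91), mlt-8 (0.14) and the lipoprotein receptor gene lrp-1 (−0.03). With pristine particles 6 of 26 lay above control (median −0.09), and with silver nitrate 15 did (median 0.05). The protease inhibitor gene bli-5 passed between aged and pristine particles (limma adjusted p = 0.0496) and between aged particles and silver nitrate (limma adjusted p = 0.018). It was the only molting-cycle gene called in those contrasts. Its pristine, silver nitrate and control arrays were all at the floor, so its log2 difference of 1.27 is a lower bound. Values at the floor have no spread, so the pooled SE (0.16) and both adjusted p-values may be too small. The same difference from control did not pass (limma adjusted p = 0.11).

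Epidermis markers, 11 genes with none at the floor on all arrays, had mean levels of 0.14 to 0.44 with aged particles, −0.35 to −0.06 with pristine particles and −0.08 to 0.20 with silver nitrate, against −0.18 to 0.15 in control. Their summed signal lay between 10983 and 12582 units with aged particles, 7855 and 9958 with pristine particles, and 10550 and 11041 with silver nitrate, against 9587 and 11968 in control. With aged particles 7 of the 11 lay above control (median 0.14), with pristine particles 5 (−0.02) and with silver nitrate 6 (0.02). Body wall muscle markers, 15 genes with none at the floor on all arrays, had mean levels of 0.03 to 0.31 with aged particles, −0.20 to −0.01 with pristine particles and −0.19 to 0.01 with silver nitrate, against −0.08 to 0.14 in control. With aged particles 11 of the 15 lay above control (median 0.17), with pristine particles 4 (−0.09) and with silver nitrate 5 (−0.10). No marker of either tissue passed against control, and the part of tissue composition in the attachment gene levels was not tested. The summed muscle marker signal lay between 106480 and 121680 units with aged particles, 102610 and 106860 with pristine particles, and 88576 and 107830 with silver nitrate, against 111050 and 114280 in control. Of the other tissues, 15 germline markers had medians of 0.28 with aged particles, 0.39 with pristine particles and 0.65 with silver nitrate, 12 pharynx markers 0.08, 0.10 and 0.13, 12 intestine markers 0.00, −0.04 and 0.08, and 12 neuron markers −0.11, −0.04 and −0.08, with 0 genes of these lists passing against control.

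Among genes that act beside the 7, partners of the fibrous organelle lay on both sides of control. Of 11 measured, 5 lay above control with aged particles (median −0.08), 7 with pristine particles (median 0.03) and 4 with silver nitrate (median −0.07), and 0 passed in any contrast. The brightest were pat-12, which codes for a fibrous organelle component (0.49 with aged particles, 0.33 with pristine particles and 0.46 with silver nitrate), the A-type filament gene ifa-1 (0.17, −0.19 and −0.07), the calreticulin gene crt-1 (−0.11, 0.03 and −0.21) and mec-8, which codes for a regulator of unc-52 splicing (−0.42, 0.02 and −0.20). Other intermediate filament genes, 10 measured, had medians of 0.17, −0.04 and 0.21 in the same order of exposures. Of these, ifc-1, a filament gene of the intestine, had 1.11 with silver nitrate (adjusted p = 0.106) and 0.54 with aged particles, ifc-2 had 0.41 and 0.16, and ifb-2, a gut filament gene, had 0.04 and −0.02.

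On the muscle side, genes of the dense bodies and M-lines, which anchor the sarcomere to the membrane, lay above control in 16 of 17 cases with aged particles (median 0.29), in 11 with pristine particles (0.07) and in 12 with silver nitrate (0.13). None passed. The brightest were zyx-1, the zyxin gene (0.08 with aged particles), the giant M-line protein gene unc-89 (0.32), dim-1, which codes for an immunoglobulin-domain muscle protein (0.49), and the M-line gene unc-96 (0.08). Basement membrane genes, the class to which unc-52 belongs, had 13 of 21 above control with aged particles (median 0.04), 7 with pristine particles (−0.11) and 11 with silver nitrate (0.03), with 0 passing. Their brightest were emb-9, a type IV collagen gene (0.88 with aged particles, adjusted p = 0.51), ost-1, the SPARC gene (0.28), sdn-1, the syndecan gene (−0.14), and mig-6, the papilin gene (−0.04). Spectrin cytoskeleton genes, 5 measured, lay above control in 5 cases with aged particles (median 0.25), 4 with pristine particles (0.18) and 5 with silver nitrate (0.26). With aged particles spc-1, the alpha spectrin gene, had 0.27, sma-1, a beta-heavy spectrin gene, 0.28, erm-1, which codes for a membrane to actin linker, 0.25, and unc-44, the ankyrin gene, 0.01.

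**Figure D4:**
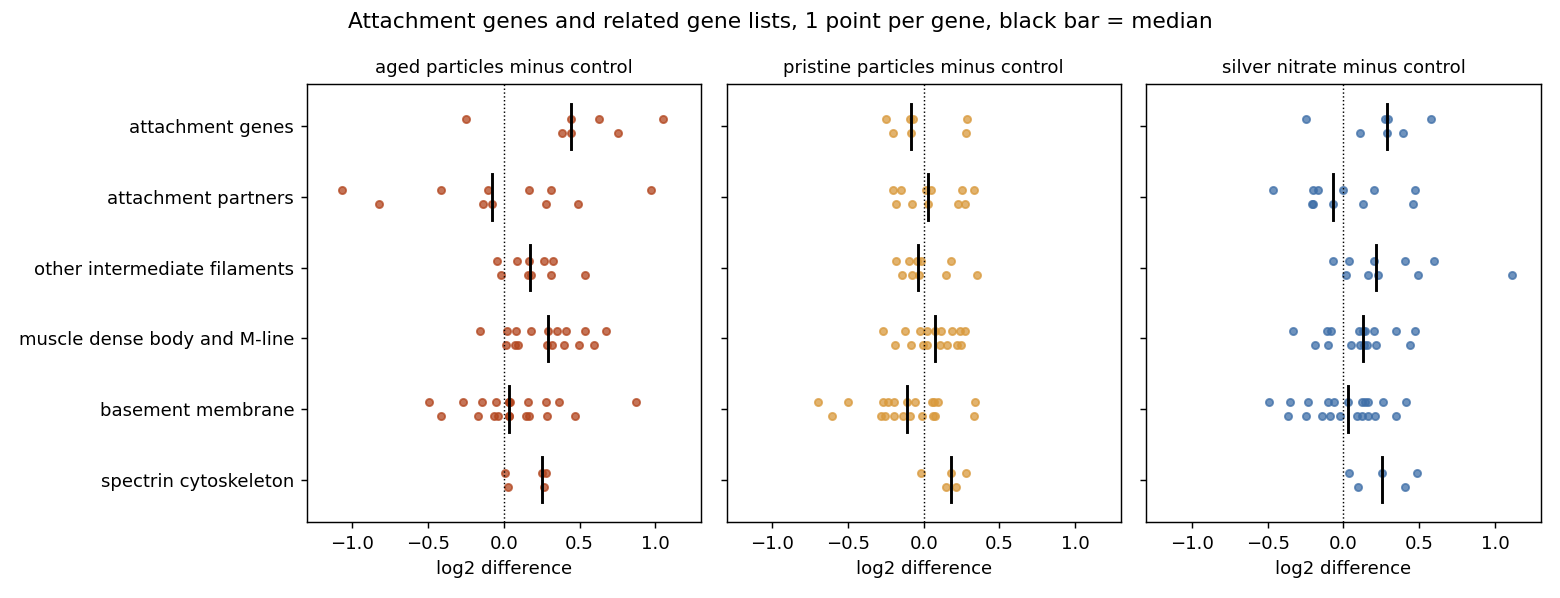
Log2 difference from control (horizontal axes) for each gene of 6 lists (down the page) in aged particles, pristine particles and silver nitrate, with 1 point per gene and a black bar at the list's median. The attachment genes have medians of 0.44, −0.09 and 0.28, and the fibrous organelle partners −0.08, 0.03 and −0.07.

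The 3-prime signal minus the 5-prime signal of array control genes, a reading of RNA integrity, overlapped between all groups for actin, Gapdh, ubiquitin and gly14, but not between aged and pristine particles for catalase. For catalase it was 1.75 to 1.90 with aged particles, 1.303 to 1.61 with pristine particles and 1.496 to 2.08 with silver nitrate, against 1.32 to 2.00 in control (log2). For actin it was 1.57 to 1.68 with aged particles, 1.47 to 1.80 with pristine particles and 1.16 to 1.71 with silver nitrate, against 1.53 to 2.01 in control (log2). For Gapdh it was 0.25 to 0.41 with aged particles, 0.16 to 0.38 with pristine particles and 0.15 to 0.31 with silver nitrate, against 0.20 to 0.28 in control. For ubiquitin it was 3.91 to 4.08 with aged particles, 3.81 to 4.16 with pristine particles and 3.71 to 4.03 with silver nitrate, against 3.83 to 4.29 in control. For gly14 it was −2.06 to −0.94 with aged particles, −1.99 to −0.32 with pristine particles and −1.53 to −1.02 with silver nitrate, against −2.16 to −0.93 in control. The 3-prime signal of gly14 was at the floor on all aged-particle arrays and at most 4.56 on any array. Its values thus follow a dim 5-prime signal and say little about RNA integrity. The part of RNA integrity in the attachment gene levels, the difference between aged and pristine particles included, was not tested.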

How the data were processed

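The deposited table holds 1 intensity per probe set and array, on a linear scale. A mean trimmed by 2% at both ends came to 500.1 or 500.2 on each of the 12 arrays, so the authors' deposited intensity values are on a shared scale. How they were made is not given in the sources used here. Per the labels' protocols, Trizol RNA (100 ng) was biotin-labelled by in vitro transcription. Array controls (77 probe sets) were set aside. Gene names came from GEO's platform annotation, updated through RefSeq. The files name no genome build, so no coordinates are given, and no sequence was used here.

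Arrays were scaled to a common median, values under 16 were set to 16 (13.7% to 15.8% of probe sets), and log2 was taken. This scaling moved exposed groups against control by −0.03, −0.03 and −0.07 (aged, pristine, silver nitrate). All 12 arrays entered 1 limma fit (limma 3.58.1, R 4.3.3; 8 residual and 0.94 prior degrees of freedom) with Benjamini-Hochberg adjustment over 22548 probe sets. The fit was also run on simulated data with planted differences, a check of the code that does not give its power for the attachment genes. The brightest probe set stood for a gene. Of each related list the 4 brightest genes and any that passed are named. Some lists share genes, so they are not independent of one another. The genes ifa-1 and mua-6 are in both the partners and the other intermediate filaments. The intestine markers share ifb-2 with the other intermediate filaments, and the molting-cycle list shares nhr-23 with the epidermis markers. Members and lists were chosen with earlier results of these data known.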

Additional observations from a re-analysis of the deposited data

How the results depend on the processing

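No attachment gene was called by its brightest probe set in any contrast under any alternative run (0 called in each of 153 counts); the smallest limma adjusted p was 0.0618, for mup-4 between aged and pristine particles above median brightness. That setting kept 11 of the 19 attachment probe sets. Of these the third of unc-52 passed between silver nitrate and control (adjusted p = 0.0368), where 185 probe sets of the array passed, beside 30 in the main fit. Elsewhere the smallest adjusted p of an attachment probe set in that contrast was 0.0678 to 0.227. With aged particles against control, mup-4 kept a difference of 0.93 to 1.18 over all alternatives, mua-3 0.31 to 0.75, ifb-1 0.29 to 0.59, let-805 0.30 to 1.11 and unc-52 0.20 to 0.60.

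Of 906 values, 22 turned direction, none of them called. With the mean of all probe sets of a gene, vab-10 turned to −0.077 (aged minus control), −0.23 (aged minus pristine), −0.11 (aged minus silver nitrate), 0.16 (pristine minus control) and 0.12 (pristine minus silver nitrate), unc-52 to −0.11 (aged minus silver nitrate), let-805 to −0.12 and mup-4 to 0.072 (both pristine minus control). With a floor of 1, ifa-3 turned to 0.0088 (pristine minus control). Leaving out 1 array gave ranges across 0 for aged minus silver nitrate (let-805 −0.068 to 0.49, unc-52 −0.091 to 0.27, vab-10 −0.084 to 0.28), for pristine minus control (let-805 −0.015 to 0.63, mua-3 −0.25 to 0.037, mup-4 −0.23 to 0.13, vab-10 −0.27 to 0.16) and for pristine minus silver nitrate (let-805 −0.54 to 0.013, unc-52 −0.28 to 0.11). The cause was not tested.

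Counts over all probe sets ranged from 0 to 16 for aged minus control (2 as reported), 0 to 18 for pristine minus control (1), 0 to 185 for silver nitrate minus control (30), 5 to 107 for aged minus pristine (25), 13 to 182 for aged minus silver nitrate (57) and 0 to 80 for pristine minus silver nitrate (1). Same-numbered arrays of different groups had deviations correlated at −0.10 to 0.09 (18 pairs, median 0.06). For arrays of different numbers it was −0.13 to 0.18 (36 pairs, median −0.01). Of 12 arrays, 7 correlated best with their own number. Whether arrays of the same number share an effect was not tested, and the labels do not call them pairs. The main fit did not take the numbers as pairs. With a replicate block 0 members were called by their brightest probe set in any contrast (smallest adjusted p = 0.117), and the probe sets called over the whole array numbered 7, 1 and 10 for aged particles, pristine particles and silver nitrate against control, 14 for aged minus pristine, 37 for aged minus silver nitrate and 0 for pristine minus silver nitrate (2275 at an unadjusted p under 0.05). The filter above median brightness leaves out mua-3 and ifa-3, and that on the dimmest 25% leaves out ifa-3. The order without silver nitrate replicate 2 was chosen after seeing the data. The floor limits what can be said of ifa-3, of 1 probe set of mua-3 and of 2 of vab-10.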
